A study of Mus musculus with 7 samples.

Results

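Naive T cells were followed in the stromal vascular fraction, the non-adipocyte cells, of inguinal subcutaneous fat from old and young mice. They were chosen by a gate on raw unique molecular identifiers (UMIs, counted molecules) in each kept cell: at least 1 UMI of Cd3d, Cd3e and Cd3g together, at least 1 of Lef1 and Ccr7 together, and 0 UMIs of Ccl5, Foxp3, Cd79a, Pdgfra and Fscn1. This gave 1342 members among 39566 kept cells of 45514 barcodes (3.39%), and among 4608 T cells, which are kept cells with a Cd3 UMI and none of Cd79a, Pdgfra or Fscn1. The study profiled female C57BL/6N mice with no treatment or transgene, as 3 libraries of old mice (18 months) and 4 libraries of young mice (labelled 11 to 12 weeks, and as 3 months in the series' design text), with 10x Genomics 3′ chemistry after collagenase digestion and red cell lysis. Library totals ran from 52336665 to 99516882 UMIs, and no label says whether a library came from 1 mouse or from a pool, so p-values measure the spread between libraries. Members numbered 210, 174 and 385 in old replicates 1 to 3 (769 in all), against 14, 81, 232 and 246 in young replicates 1 to 4 (573 in all). Their median depth was 5146 UMIs in old and 7279 UMIs in young libraries. A rule of 0 UMIs of a gene is easier to pass in a shallower cell, and a rule of at least 1 UMI is harder.

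A naive T cell has left the thymus and has not yet met its antigen. It is kept in a resting state by transcription factors such as TCF1 (Tcf7), LEF1 (Lef1) and SATB1 (Satb1), survives on interleukin 7, and circulates through lymph nodes with the help of the chemokine receptor CCR7 (Ccr7). On activation these genes are lowered and CD44 (Cd44), cytokines and cytotoxic granule genes are raised. With age, naive T cells become fewer in mouse blood and lymphoid organs as the thymus shrinks, and memory-type T cells gather in fat. Inguinal fat encloses a lymph node; whether it was removed is not given in the sources used here.

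The label was checked against markers that the gate did not use, as CPM (a gene's summed UMIs scaled to an equal total in each library) without further scaling. Tcf7 lay between 273 and 496 CPM in members over the 7 libraries, and between 94.8 and 214 CPM in other T cells, which are T cells outside the gate without Foxp3. In each of the 7 libraries Tcf7, Satb1 and Dapl1, a gene of resting T cells, were higher in members than in other T cells. These comparisons follow from the choice of cells and carry no test. Dapl1 had 51.0, 13.2 and 89.1 CPM in members of old replicates 1 to 3, against 149, 210, 272 and 161 CPM in members of young replicates 1 to 4. The ages did not overlap for Dapl1, and old replicate 2 was lowest. That library also stood apart for Cd44, with 319 CPM in its members and 307 CPM in its other T cells. In the other 6 libraries members had less Cd44 than other T cells.

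**Figure D1:**
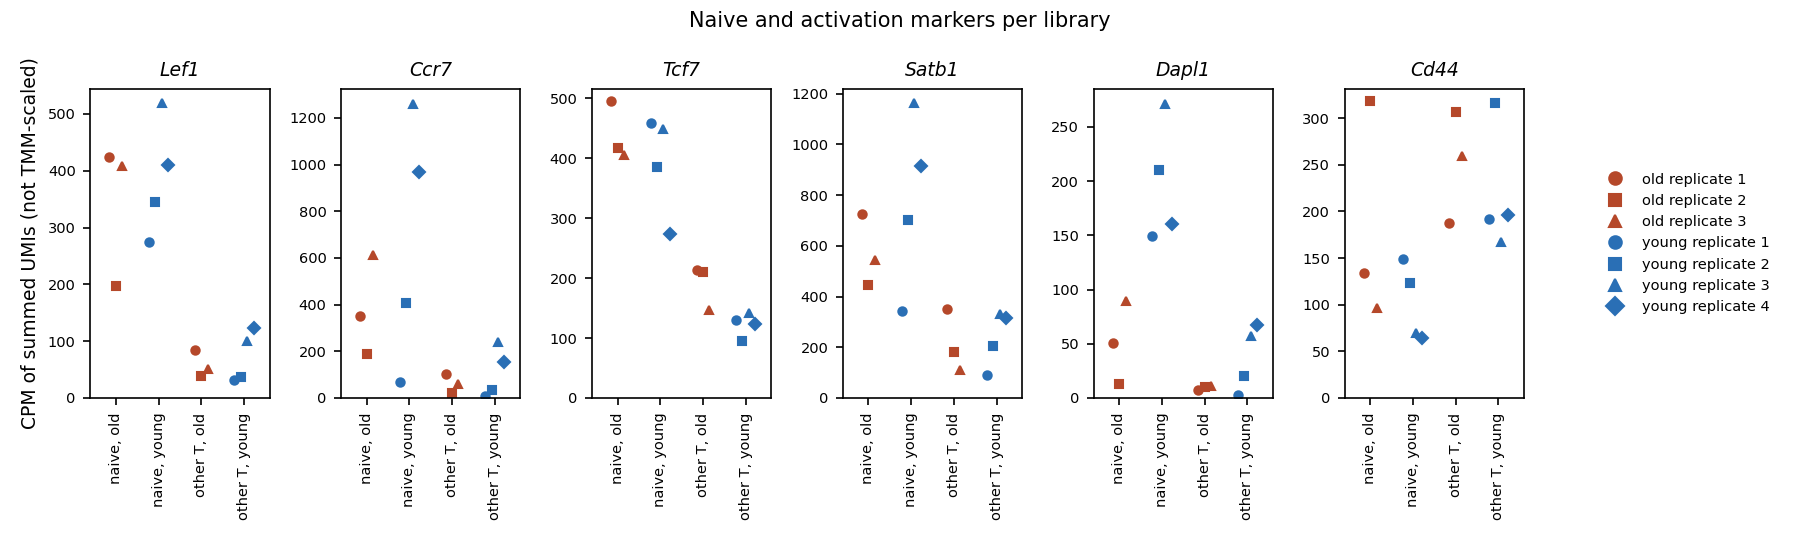
CPM of summed UMIs without TMM scaling (y axis) for gate genes (Lef1, Ccr7), other naive markers (Tcf7, Satb1, Dapl1) and the activation marker Cd44, in members and other T cells of each library; each point is a library. Members of old replicate 2 have the lowest Dapl1 (13.2 CPM) and the highest Cd44 (319 CPM) of the 7 libraries' members.

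The gate admitted cells on as little as 1 UMI of Lef1 and Ccr7, and the members just inside it were less naive in their other genes. The 266 members with exactly 1 such UMI had 292 CPM of Tcf7, 253 CPM of Satb1, 24.0 CPM of Dapl1 and 236 CPM of Cd44. The 1076 members with 2 or more had 421 CPM of Tcf7, 925 CPM of Satb1, 170 CPM of Dapl1 and 84.8 CPM of Cd44. Just outside, the 888 T cells kept out only for want of a Lef1 or Ccr7 UMI had 147 CPM of Tcf7, 137 CPM of Satb1, 5.52 CPM of Dapl1 and 341 CPM of Cd44. On the other edge, the 107 T cells kept out by a single UMI of Ccl5, a chemokine of memory and effector T cells, had 256 CPM of Tcf7 and 416 CPM of Satb1. Members at the 1 UMI edge made up 24.3%, 49.4% and 20% of members in old replicates 1 to 3, against 50%, 27.2%, 4.31% and 5.28% in young replicates 1 to 4. Members with a Cd44 UMI made up 28.6%, 66.1% and 20% in old replicates 1 to 3, against 42.9%, 28.4%, 22.8% and 23.6% in young replicates 1 to 4. The edge is thus filled unevenly between libraries, most in old replicate 2 and in the 14 members of young replicate 1.

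Naive T cells made up 3.17%, 2.34% and 6.27% of kept cells in old replicates 1 to 3 (3.92% ± 2.07, SD, n = 3), against 0.298%, 1.37%, 8.09% and 4.19% in young replicates 1 to 4 (3.49% ± 3.48, SD, n = 4). The ages overlapped, and the mean log2 odds differed by 0.89, old minus young (exact permutation test over 35 splits, 2-sided, p = 0.571, adjusted over 3 shares 0.571). Without young replicate 1, whose share was lowest, the difference was -0.01 (exact p = 1.00).

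The rest of the T cell pool stood further apart. Other T cells made up 12.2% ± 0.365 of kept cells in old libraries (SD, n = 3), against 2.67% ± 1.16 in young libraries (SD, n = 4). As a share of T cells, members were 19.5%, 15.1% and 30.5% in old replicates 1 to 3 (21.7% ± 7.92, SD, n = 3), against 19.4%, 28.0%, 65.7% and 61.7% in young replicates 1 to 4 (43.7% ± 23.4, SD, n = 4). The 2 highest values were both young, but the ages overlapped and the log2 odds difference of -1.47 did not pass the test (exact permutation, 2-sided, p = 0.229, adjusted 0.343; the smallest p that 35 splits allow is 0.0286). With each kept cell thinned to 2000 UMIs and the gate applied anew, members were 17.6% of T cells in old and 41.8% in young libraries. They then numbered 159, 105 and 319 in old replicates 1 to 3, against 9, 60, 233 and 229 in young replicates 1 to 4. The 21 old and 4 young members below that depth were left out, and other cells crossed the gate. B cells, the other lymphocytes of the suspension, made up 5.78%, 5.52% and 23.9% of kept cells in old replicates 1 to 3, against 2.17%, 5.03%, 9.41% and 2.57% in young replicates 1 to 4. B cells and members were each highest in old replicate 3 among old and in young replicate 3 among young libraries; the part of attached lymph node tissue was not tested.

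Members were split by their coreceptors into 426 of CD8 type (a Cd8a or Cd8b1 UMI and no Cd4 UMI), 502 of CD4 type (the reverse), 26 with both and 388 with neither. CD8-type cells, the precursors of killer cells, made up 31.0%, 13.8% and 51.2% of CD8- and CD4-type members in old replicates 1 to 3 (32.0% ± 18.7, SD, n = 3), against 50.9%, 54.8% and 62.3% in young replicates 2 to 4 (56.0% ± 5.77, SD, n = 3). Young replicate 1 had 14 members, 10 of them typed. It was left out here and from the main expression fits, which ask for at least 20 members, and stayed in the other shares. Old replicates 1 and 2 lay below all young libraries and old replicate 3 lay among them, and the log2 odds difference of -1.58 did not pass (exact permutation, 2-sided, p = 0.2, adjusted 0.343, with 0.1 the smallest p possible). After thinning, the shares averaged 42.3% in old and 65.4% in young libraries. Neither coreceptor was detected in 33.1% ± 4.94 of old members (SD, n = 3), against 25.5% ± 6.27 of young members (SD, n = 4).

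**Figure D2:**
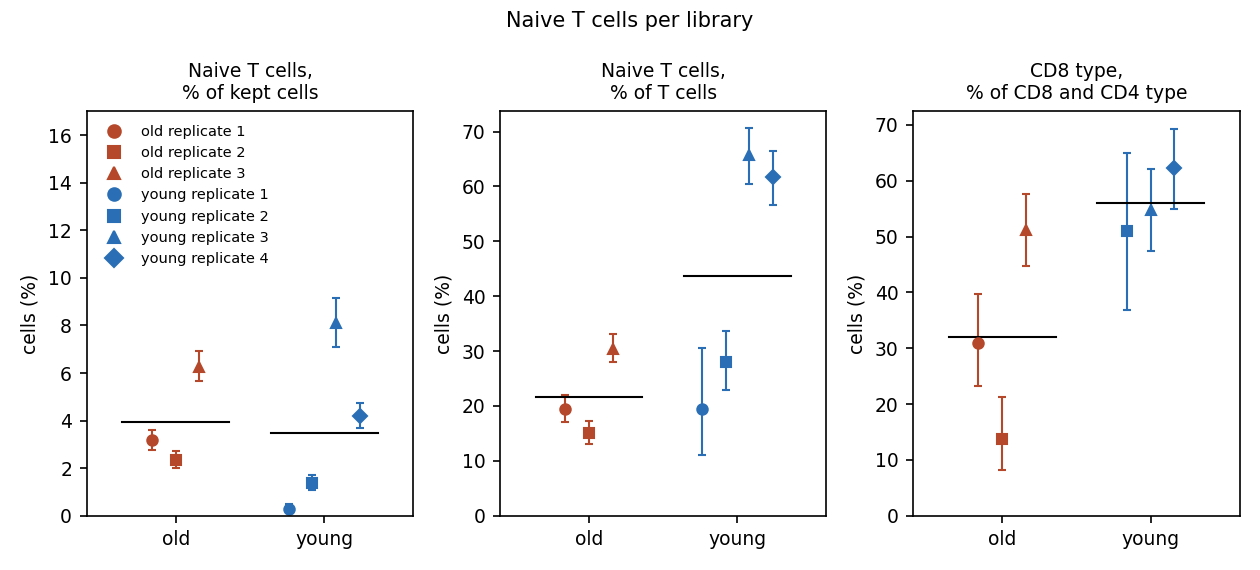
Share of cells in percent (y axis) for members among kept cells, members among T cells, and CD8 type among CD8- and CD4-type members, by library; bars on points are exact 95% binomial intervals, which cover counting error only, and lines are group means. Old libraries average 21.7% of T cells against 43.7% in young libraries, with overlap of the 2 ages.

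Expression at the 2 ages was compared on UMI counts summed over members in each library, for 3 old and 3 young libraries (replicates 2 to 4). Levels from here on are CPM scaled by TMM, edgeR's correction for composition, unless stated, and log2 fold changes are old over young from edgeR's quasi-likelihood test. Of 8733 genes tested, 9 passed an adjusted p of 0.05 (0.103%), and all 9 were higher in old mice. They were Sostdc1, Ifng, Jchain, Spock2, Gzmk, Tnfsf8, Sdcbp2, Stx11 and Tiam1. None was lower; 643 genes (7.36%) had an unadjusted p under 0.05 in either direction, and DESeq2 called 38 genes, 31 higher and 7 lower. The count rested on single libraries. It was 1 when old replicate 1 was left out, 1 for old replicate 2 and 15 for old replicate 3, and it was 0 when young replicate 2 was left out, 1 for young replicate 3 and 5 for young replicate 4. It was 0 when the members with a Cd44 UMI were left out, and 1 with a gate of at least 2 UMIs each of the Cd3 genes and of Lef1 and Ccr7.

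Sostdc1, which encodes a secreted antagonist of BMP and Wnt signals (ENSMUSG00000036169, chromosome 12, 36314139 to 36318452, plus strand, mm10), had the lowest adjusted p. It had 31.6, 55.0 and 69.8 CPM in members of old replicates 1 to 3, against 0, 0 and 1.39 CPM in members of young replicates 2 to 4. All old libraries were above all young ones. Its fitted log2 fold change was 6.20 (SE 0.64, edgeR adjusted p = 0.00592), and over the summed UMIs, 237 in old and 3 in young members, the ratio was 87.8 (exact 95% interval 29.7 to 429, counting error only). It passed under 12 of the 13 alternatives that tested it, with adjusted p from 6.43e-20 to 0.0588, the last without young replicate 2. It was too low to be tested with the stricter cell filter, after thinning and without Cd44 members. Few cells carried it: 25 of 769 old members (3.25%) and 1 of 573 young members (0.175%), against 0.221% of old and 2.20% of young B cells. The share in young members is below that in B cells pooled over the young libraries. The 1 young member was in young replicate 4, where 0 of 151 B cells had a Sostdc1 UMI. Whether its UMIs are background was not tested. Median depths were 5146 UMIs in old and 7279 UMIs in young members, and 4965 UMIs in old and 7347 UMIs in young B cells.

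These 25 old members, 7, 8 and 10 in old replicates 1 to 3, were not typical of the gate. Of them 24 had a Cd4 UMI and 23 a Cd44 UMI, and 14 had just 1 UMI of Lef1 and Ccr7. In addition 21 had a UMI of Tnfsf8, 22 of Tbc1d4, 21 of Icos (a costimulatory receptor), 18 of Lag3, 14 of Ifng and 13 of Pdcd1 (PD-1, an inhibitory receptor). Dapl1 was found in 0 and Satb1 in 2 of the 25, while Tcf7 was found in 19. These cells and genes were singled out after their values were seen, and no test was made on them. Outside the gate, 61 other T cells of old libraries had a Sostdc1 UMI, and 1 other T cell of young libraries, in young replicate 1, did.

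Tnfsf8, which encodes the TNF-family ligand CD153 (chromosome 4, 63831308 to 63861347, minus strand), was the most abundant of the 9 genes. It had 183, 171 and 146 CPM in members of old replicates 1 to 3, against 54.6, 26.0 and 49.1 CPM in members of young replicates 2 to 4. The log2 fold change was 1.99 (SE 0.30; adjusted p = 0.043 by edgeR). All old libraries were above all young ones, and 24.3% of old members had a UMI, against 12.6% of young members, with 1.33% of old and 0.488% of young B cells as background. Of the 187 old members with a Tnfsf8 UMI, 110 also had a Cd44 UMI. It was found in 43.7% of old and 17.9% of young members with a Cd44 UMI, and in 14.9% of old and 10.9% of young members without one. In members without Cd44 the log2 fold change was 1.97 and did not pass (edgeR adjusted p = 0.11). The call also ended without old replicate 1 (adjusted p = 0.186), old replicate 2 (0.0945), young replicate 2 (0.0923), young replicate 3 (0.174) or young replicate 4 (0.127). Over 16 alternatives the log2 fold change stayed between 1.504 and 2.148, with adjusted p from 3.81e-07 to 0.457.

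Ifng and Gzmk are effector genes, for the cytokine interferon gamma and for granzyme K, a protease of cytotoxic granules. Ifng had 47.8, 29.5 and 27.5 CPM in members of old replicates 1 to 3, against 2.18, 2.41 and 5.10 CPM in members of young replicates 2 to 4 (log2 fold change 3.26, SE 0.42, edgeR adjusted p = 0.0305). Gzmk (chromosome 13, 113171608 to 113225908, minus strand) had 17, 7.97 and 12.6 CPM in members of old replicates 1 to 3 and 0 in all 3 young libraries. With 55 UMIs in old and 0 in young members, Gzmk was at least 20.4-fold higher, taking 3 UMIs over the young group as the floor (edgeR adjusted p = 0.043). Old and young libraries did not overlap for either gene. Of the old members with the UMI, 37 of 52 for Ifng and 21 of 27 for Gzmk also had a Cd44 UMI, while 252 of all 769 old members did. The Ifng call ended without old replicate 1 (adjusted p = 0.151), old replicate 2 (0.0547), young replicate 2 (0.077) or young replicate 3 (0.174). The Gzmk call ended without any 1 of the 6 libraries, with adjusted p of 0.222, 0.0945 and 0.0808 for old replicates 1 to 3 and of 0.0923, 0.174 and 0.154 for young replicates 2 to 4.

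Of the remaining 5 genes, Tiam1, an activator of the GTPase Rac, averaged 57.5 ± 26.5 CPM in old and 12.1 ± 0.879 CPM in young members (SD, n = 3 each; log2 fold change 2.26). Sdcbp2, a PDZ-domain adaptor, averaged 38.5 ± 12.8 CPM in old and 7.96 ± 0.915 CPM in young members (log2 fold change 2.30). Stx11, a syntaxin of lytic granule release, averaged 30.8 ± 4.06 CPM in old and 6.98 ± 2.33 CPM in young members (log2 fold change 2.22), and Spock2, an extracellular proteoglycan, 19.3 ± 7.22 CPM in old and 1.83 ± 0.369 CPM in young members (log2 fold change 3.42). Their edgeR adjusted p lay between 0.043 and 0.047 and no old library overlapped a young one. Spock2, Sdcbp2 and Stx11 fall outside the naming rule and were named after their values were seen. Spock2 UMIs were also in 3.71% of old and 14.0% of young B cells, against 5.46% of old and 1.22% of young members, and Stx11 UMIs in 7.03% of old and 11.5% of young B cells, against 8.58% of old and 3.32% of young members. Each of these 4 calls ended without old replicate 1, old replicate 2, young replicate 2, young replicate 3 or young replicate 4, with adjusted p from 0.091 to 0.191, and those of Sdcbp2 and Stx11 also without old replicate 3 (0.0625 each).

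Jchain, the joining chain of secreted antibodies, is a plasma cell gene and was 343 times higher in the series' B cells than in members. It had 13.1, 20.7 and 11.5 CPM in members of old replicates 1 to 3 and 0 in the young libraries, at least 23.7-fold higher by the same floor of 3 UMIs (edgeR adjusted p = 0.0423). That call ended without any 1 of the 6 libraries, with adjusted p of 0.179, 0.0945 and 0.0518 for old replicates 1 to 3 and of 0.076, 0.174 and 0.125 for young replicates 2 to 4. A Jchain UMI was found in 7.28% of old members and 12.9% of old B cells, against 0 of 573 young members, which allows up to 0.524%, and 1.34% of young B cells. The share in members is below that in B cells at both ages, but B cells are the cells in which Jchain is high. That comparison therefore cannot decide whether the UMIs in members are background or expression, which was not tested.

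**Figure D3:**
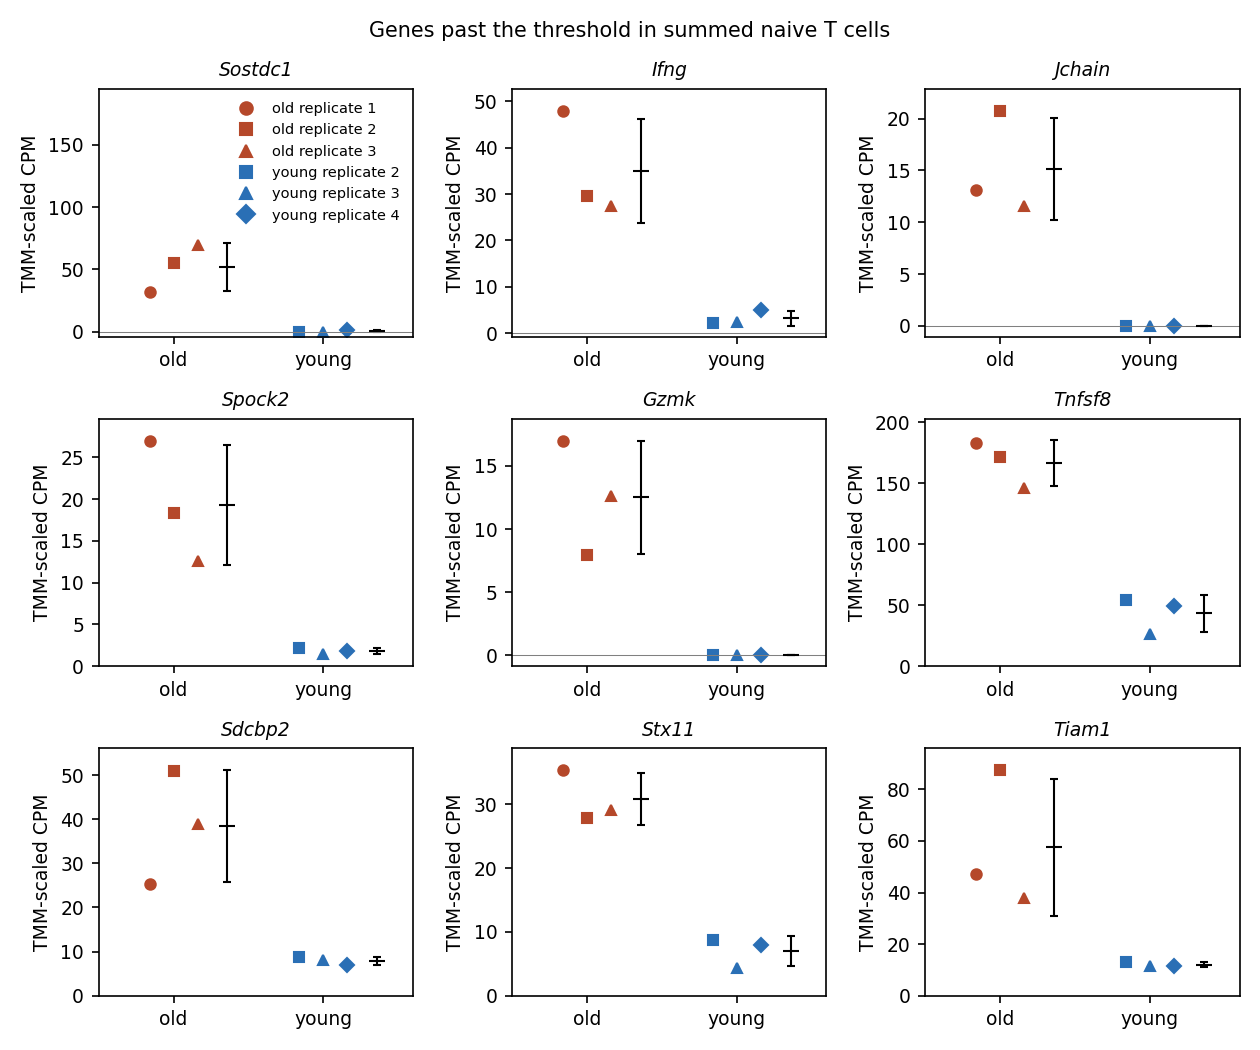
TMM-scaled CPM (y axis) of the 9 genes past the threshold in summed members of each old and young library; points are libraries, black marks the mean and SD (n = 3 each). For each gene all 3 old libraries lie above all 3 young ones, and Gzmk and Jchain are at 0 in the young libraries.

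The genes that keep naive T cells resting were more often lower than higher in old members, and none passed. In the list of naive and quiescence regulators, 9 of 24 tested genes were higher, 15 were lower, with a median log2 fold change of -0.20, against 0.01 over all genes. Dapl1 had 47.0, 11.2 and 105 CPM in members of old replicates 1 to 3, against 227, 283 and 167 CPM in members of young replicates 2 to 4, and its log2 fold change was -2.02 (SE 0.55; adjusted p = 0.328 by edgeR). Satb1, a chromatin organiser of T cell identity, had 668, 375 and 644 CPM in members of old replicates 1 to 3, against 760, 1216 and 949 CPM in members of young replicates 2 to 4 (log2 fold change -0.79, SE 0.30, adjusted p = 0.59). Both ages stayed apart for these 2 genes, which 5.38% of all tested genes did in this direction. Tcf7 averaged 430 ± 67.9 CPM in old and 389 ± 95.6 CPM in young members (log2 fold change 0.14, adjusted p = 0.966; SD, n = 3 each). Foxp1, Bach2 and Klf2, factors of quiescence and recirculation, had log2 fold changes of -0.35, -0.19 and -0.55 with adjusted p of 0.888 or above. The gate genes themselves were described only: Ccr7 averaged 402 ± 290 CPM in old and 919 ± 445 CPM in young members, and Lef1 347 ± 163 CPM in old and 447 ± 86.6 CPM in young members (SD, n = 3 each).

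Checkpoint and memory genes were more often higher than lower. In the checkpoint and exhaustion list 16 of 19 tested genes were higher and 3 lower, with a median log2 fold change of 0.71, and Sostdc1 and Tnfsf8 passed. In 7 of them all old libraries were above all young ones, where 5.81% of all tested genes were. Lag3, an inhibitory receptor, had a log2 fold change of 2.37 (adjusted p = 0.19), Pdcd1 of 0.91 (0.651), and Tox, a factor of exhausted T cells, of -0.02 (0.999). In the effector and memory list 19 of 26 tested genes were higher and 7 lower (median 0.36, the same with Gzmk at its bound), and Ifng and Gzmk passed. Tbx21, the type 1 master regulator T-bet, had a log2 fold change of 2.99 with adjusted p = 0.0548, and its relative Eomes had 116, 13.5 and 25.8 CPM in members of old replicates 1 to 3, against 2.18, 5.79 and 6.95 CPM in members of young replicates 2 to 4 (3.13, adjusted p = 0.217). Cd44 itself averaged 169 ± 86.6 CPM in old and 90.9 ± 36.7 CPM in young members (log2 fold change 0.94, adjusted p = 0.628; SD, n = 3 each). The lists were drawn up with earlier results of these data known. The checkpoint list holds Sostdc1, a secreted antagonist, and Tnfsf8, a ligand, so its counts are no test of a checkpoint theme.

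Among receptors that steer T cells, the homing list had 12 of 21 genes higher and 9 lower (median 0.15) and none passed. Ccr9, the gut-homing receptor of recent thymic emigrants in mice, averaged 8.15 ± 3.61 CPM in old and 27.2 ± 11.7 CPM in young members (log2 fold change -1.79, adjusted p = 0.217), and Cxcr3, a receptor of type 1 cells, 30.5 ± 13.7 CPM in old and 10.2 ± 3.46 CPM in young members (1.45, adjusted p = 0.312; SD, n = 3 each). The ages did not overlap for either gene, as in 5.38% of tested genes in the direction of Ccr9 and 5.81% in that of Cxcr3. Cytokine receptor and survival genes were balanced, with 12 higher and 13 lower of 25 (median -0.01): Il7r had a log2 fold change of 0.17, Il2rb of 0.65 and Bcl2 of -0.25, with adjusted p from 0.651 to 0.977. T cell receptor signalling genes were balanced as well, with 11 higher and 14 lower of 25 (median -0.07). In the CD8 and CD4 lineage list, 4 genes were higher and 10 lower of 14 (median -0.15). Cd4 had a log2 fold change of 0.89 (adjusted p = 0.452), Cd8a of -0.83 and Cd8b1 of -0.92 (0.845 and 0.798). The CD8 and CD4 shares above were set by UMIs of these same genes, so their shared direction is no separate result. None of these genes passed.

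Of antigen presentation genes of class I, 14 of 15 were higher (median 0.25) and none passed. H2-Q6, a class I gene of the Qa region (chromosome 17, 35424850 to 35430055), had 361, 287 and 440 CPM in members of old replicates 1 to 3, against 138, 139 and 137 CPM in members of young replicates 2 to 4. Its log2 fold change was 1.40 (SE 0.25; adjusted p = 0.066 by edgeR), and the ages did not overlap. Its close copies H2-Q4 and H2-Q7 had log2 fold changes of 0.66 and 0.63, and counting could divide reads among these near-identical genes. Interferon response genes were higher in 17 and lower in 7 of 24 (median 0.14), immediate early genes in 11 and 11 of 22 (median 0.09), and heat shock genes in 6 and 7 of 13 (median -0.01). All 32 ribosomal protein genes had fold changes below 0 (median -0.31), and oxidative phosphorylation genes were lower in 22 and higher in 3 of 25 (median -0.24). None of these passed; Rps29, for example, averaged 6283 ± 1639 CPM in old and 10209 ± 1561 CPM in young members (adjusted p = 0.689; SD, n = 3 each).

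**Figure D4:**
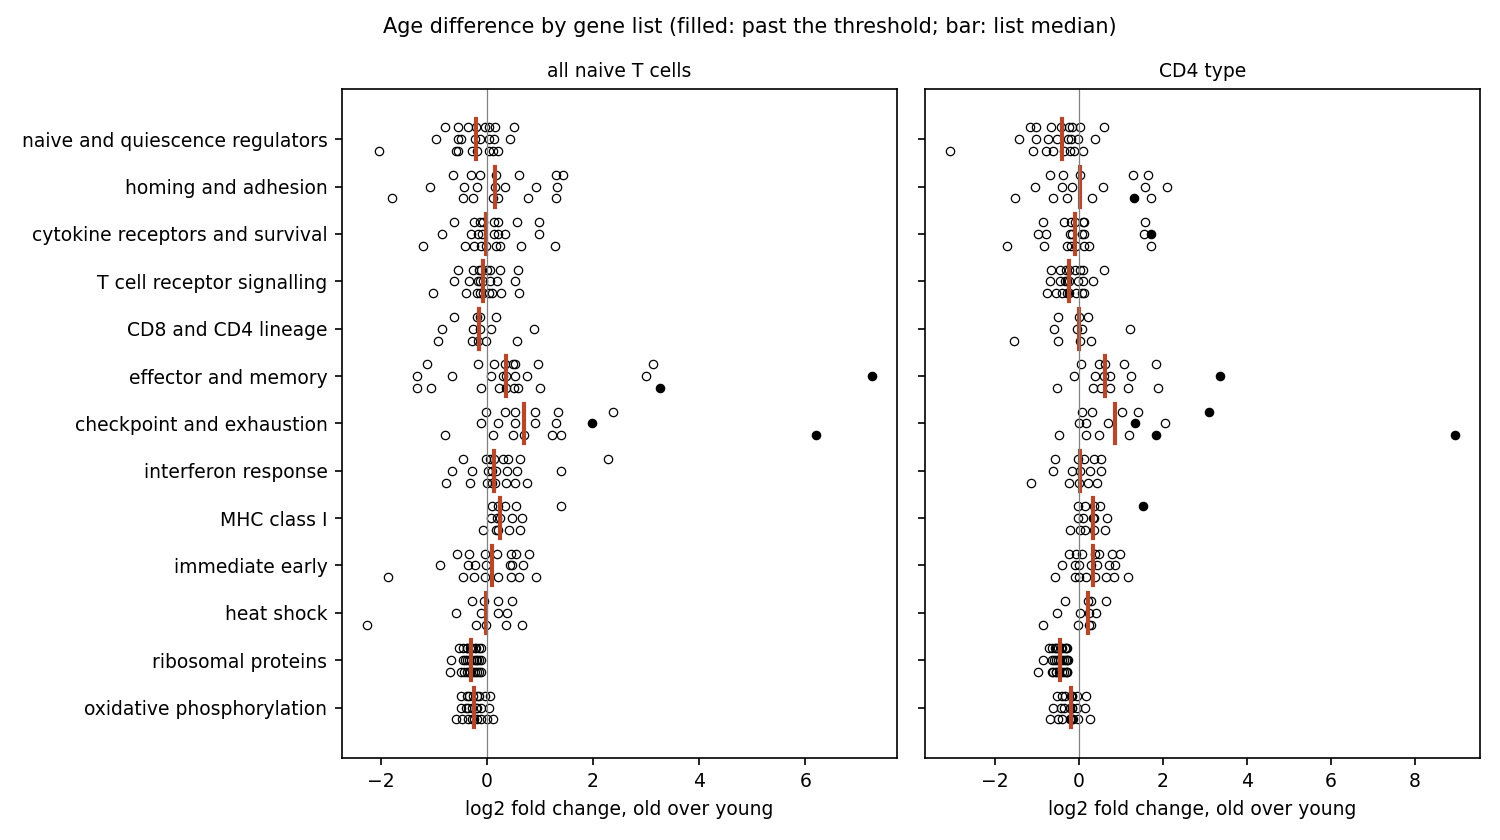
Log2 fold change, old over young (x axis), of each tested gene by list (y axis), in all members and in CD4-type members; filled points pass an edgeR adjusted p of 0.05, and bars are list medians. The checkpoint and exhaustion list has the highest median in both (0.71 and 0.86), and all lists were drawn up with earlier results of these data known. The far points of Gzmk and, in CD4-type cells, Sostdc1 depend on the prior count since the young libraries are at 0.

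RNA of other cells was present in the sums and is given here without scaling, as summed CPM of 5 markers for each type unless stated, for the 3 old and then the 3 young libraries in the fit. Fibroblast markers spanned 48.7 to 408 CPM in old and 349 to 761 CPM in young libraries, with Pdgfra at 0 by the gate. Epithelial markers spanned 54.3 to 88.2 CPM in old and 28.3 to 1533 CPM in young libraries, highest in young replicate 4. Macrophage markers spanned 118 to 478 CPM in old and 124 to 543 CPM in young libraries, and B cell markers 10.2 to 29.3 CPM in old and 10.1 to 15.2 CPM in young libraries, with Cd79a at 0 by the gate. Regulatory T cell markers spanned 318 to 494 CPM in old and 194 to 266 CPM in young libraries, with Foxp3 at 0 by the gate, and all 4 tested members were higher in old. Markers of natural killer cells spanned 18.9 to 130 CPM in old and 2.02 to 13.4 CPM in young libraries, and Eomes is one of the 5. Effector memory markers spanned 118 to 171 CPM in old and 151 to 208 CPM in young libraries, with Ccl5 at 0 by the gate. The 2 red cell markers spanned 10.2 to 169 CPM in old and 6.06 to 8.94 CPM in young libraries. The part of these cells in the age differences was not tested.

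CD4-type members gave the most calls. Summed alone, over 314 cells of the 3 old and 179 cells of the 3 young libraries, they had 33 calls among 5504 genes tested (0.6%), 27 higher in old (0.491%) and 6 lower (0.109%), and 575 genes (10.4%) had an unadjusted p under 0.05. The count was 28 when old replicate 1 was left out, 9 for old replicate 2 and 255 for old replicate 3, and it was 12 when young replicate 2 was left out, 5 for young replicate 3 and 0 for young replicate 4. The 4 increases named by lowest p were Sostdc1, Ifng, Bhlhe40 and Lag3. Sostdc1 had 78.1, 68.2 and 216 CPM in old replicates 1 to 3 and 0 in the 3 young libraries, at least 54.5-fold higher by the floor of 3 UMIs over the young group (edgeR adjusted p = 0.0105). Bhlhe40, a repressor that supports cytokine output in helper T cells, had 345, 417 and 335 CPM in old replicates 1 to 3, against 127, 55.3 and 79.3 CPM in young replicates 2 to 4 (log2 fold change 2.17, SE 0.32, adjusted p = 0.0112). Lag3 had 57.2, 37.0 and 59.6 CPM in old replicates 1 to 3, against 6.71, 6.15 and 4.67 CPM in young replicates 2 to 4 (3.10, SE 0.47, adjusted p = 0.0112), and Ifng rose by 3.35 (SE 0.49, adjusted p = 0.0112). For each of the 4 genes all old libraries were above all young ones, as 7.56% of tested genes were. Without young replicate 4 none of the 4 passed (adjusted p from 0.0516 to 0.0922), and Bhlhe40 and Lag3 did not pass without young replicate 3 either (0.0847 each).

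The decreases in CD4-type cells named by the same rule, which leaves out genes over 10 times higher in another cell type and gene models named Gm, were Tesc, Tagap, Gpr171 and Dapl1. Tesc, which encodes the calcium-binding tescalcin, had 24.8, 21.3 and 47.7 CPM in old replicates 1 to 3, against 134, 152 and 135 CPM in young replicates 2 to 4 (log2 fold change -2.18, SE 0.33, edgeR adjusted p = 0.0112). Tagap, a GTPase-activating protein of activated T cells, averaged 72.5 ± 28.1 CPM in old and 224 ± 37.8 CPM in young libraries (-1.61, adjusted p = 0.0323), and Gpr171, an orphan-family receptor expressed on T cells, 24.4 ± 9.27 CPM in old and 99.0 ± 58.1 CPM in young libraries (-2.16, adjusted p = 0.0376; SD, n = 3 each). Dapl1 had 30.5, 0 and 74.9 CPM in old replicates 1 to 3, against 510, 224 and 177 CPM in young replicates 2 to 4, and did not pass (-3.07, SE 0.70, adjusted p = 0.0611). No old library reached a young one for any of the 4 genes, as in 7.25% of tested genes. The Tesc call ended without old replicate 2 (adjusted p = 0.055) or young replicate 4 (0.0516), and those of Tagap and Gpr171 each ended without old replicate 1 (0.0898 and 0.0743), old replicate 2 (0.147 and 0.159), young replicate 3 (0.147 and 0.176) or young replicate 4 (0.109 and 0.172), and that of Tagap also without young replicate 2 (0.0932). The other 3 decreases called were Gm8369 and 2 genes of fibroblasts, Meg3 and Col3a1, which are 51.8 and 89.0 times higher in fibroblasts of the series than in CD4-type members.

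**Figure D5:**
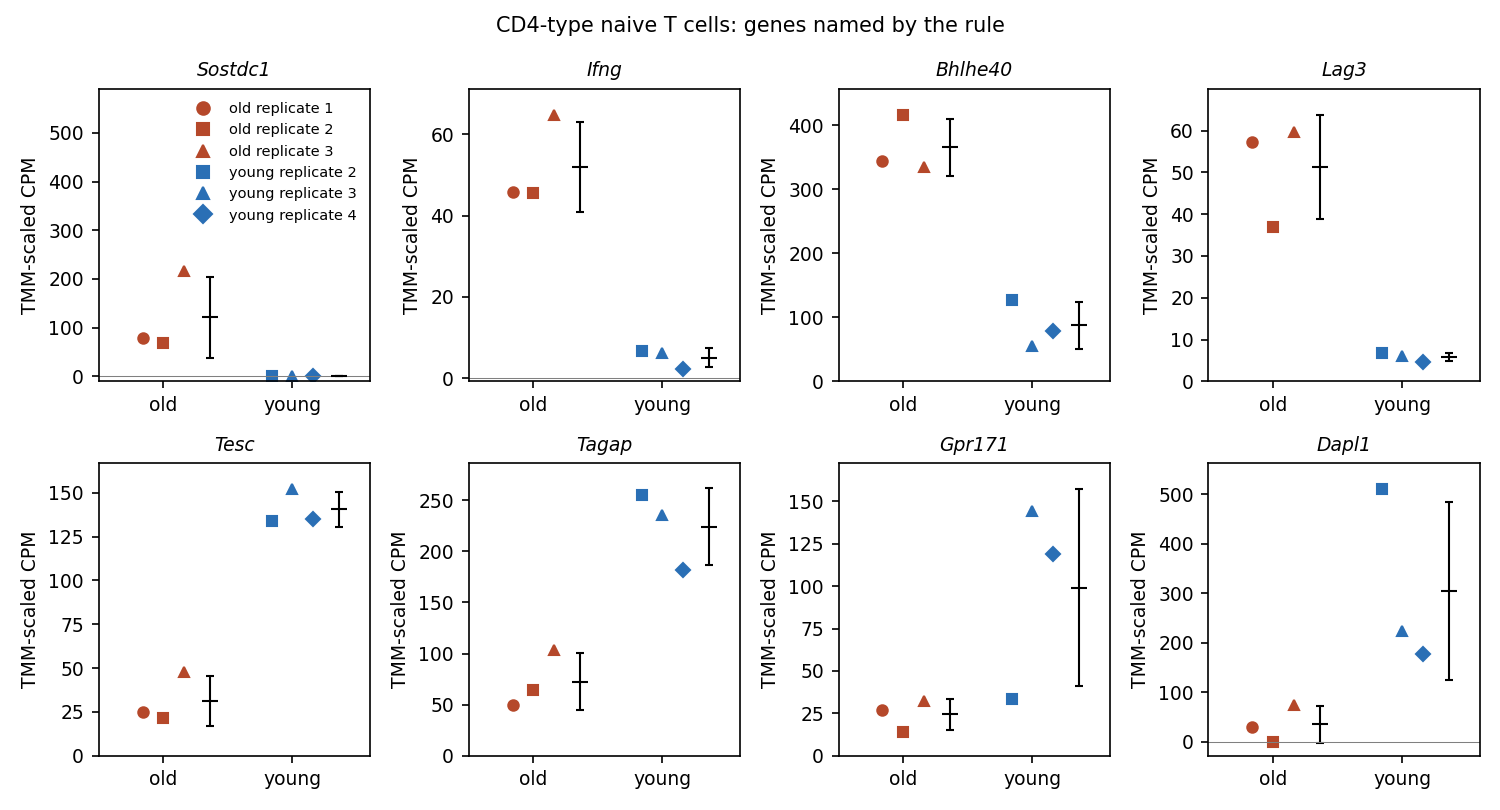
TMM-scaled CPM (y axis) in summed CD4-type members for the 4 increases and 4 decreases of lowest p among genes that the naming rule allows, which leaves out Meg3, Col3a1 and Gm8369; points are libraries, black marks the mean and SD (n = 3 each). Old and young libraries do not overlap for any of the 8 genes; Dapl1 is the one gene of the 8 that did not pass (adjusted p = 0.0611).

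Of the other calls in CD4-type cells, 7 are given here, chosen after their values were seen. Il2rb, the shared beta chain of the interleukin 2 and 15 receptors, averaged 72.0 ± 14.2 CPM in old and 23.1 ± 5.43 CPM in young libraries (log2 fold change 1.72, edgeR adjusted p = 0.0458), and Nrp1, the semaphorin receptor neuropilin 1, 186 ± 92.9 CPM in old and 26.4 ± 13.1 CPM in young libraries (2.69, adjusted p = 0.0124), and is 8.37 times higher in the series' endothelial cells. Odc1, the first enzyme of polyamine synthesis, averaged 819 ± 142 CPM in old and 228 ± 117 CPM in young libraries (1.90, adjusted p = 0.0376), and Tnfsf8 321 ± 52.8 CPM in old and 89.8 ± 32.5 CPM in young libraries (1.83, adjusted p = 0.0195; SD, n = 3 each). Tbc1d4, a regulator of glucose transporter traffic, and Ly6a, the surface antigen Sca-1 and 7.57 times higher in fibroblasts, rose by 1.34 and 1.31 (adjusted p = 0.0488 and 0.049). H2-Q6 passed here too (1.53, adjusted p = 0.0255). The checkpoint list had 14 of 16 tested genes higher (median 0.86) with 4 calls, Sostdc1, Lag3, Tnfsf8 and Tbc1d4. The quiescence list had 20 of 24 lower (median -0.39) with none. Both lists were drawn up with earlier results of these data known. Of the 4 checkpoint calls, Lag3 is an inhibitory receptor, while Sostdc1, Tnfsf8 and Tbc1d4 have the other roles given above. These counts are therefore no test of a checkpoint theme.

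The Cd44 share of CD4-type members was set apart by 1 library. Of CD4-type members, 44.9% of 314 in old and 28.7% of 188 in all 4 young libraries had a Cd44 UMI, and 37.3% in old and 6.38% in young libraries sat on the edge of 1 UMI of Lef1 and Ccr7. For Cd44 the libraries had 32.6%, 73.6% and 28.6% in old replicates 1 to 3, against 44.4%, 30.8%, 25% and 30.4% in young replicates 1 to 4, so that old replicates 1 and 3 lay within the young range. For the 1 UMI edge the libraries had 29.2%, 56.6% and 26.1% in old replicates 1 to 3, against 55.6%, 15.4%, 3.57% and 0% in young replicates 1 to 4. Among the libraries in the fit, old replicates 1 to 3 thus all lay above young replicates 2 to 4. The part of these edge cells in the calls was not tested. Without the members with a Cd44 UMI, 18 genes passed in CD4-type cells, of which 9 were among the 33: Bhlhe40 (log2 fold change 2.86, adjusted p = 0.0135), Nrp1 (3.49), Tnfsf8 (2.05), Odc1 (2.38), H2-Q6 (1.81), Rassf1, AW112010, Tesc (-1.81) and Gpr171 (-2.33). Sostdc1, Ifng and Lag3 were too low there to be tested. With the gate of at least 2 UMIs, 2 genes passed in CD4-type cells.

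CD8-type members showed 1 call among 6724 genes (0.0149%), with 395 genes (5.87%) at an unadjusted p under 0.05. Postn, a matrix gene of fibroblasts and 71.0 times higher in them, had 3.34 and 3.11 CPM in old replicates 1 and 3, against 103, 94.6 and 62.0 CPM in young replicates 2 to 4 (log2 fold change -4.64, SE 0.57, edgeR adjusted p = 0.0174). Leaving out old replicate 1 or old replicate 3 leaves 1 old library, so the call could not be checked without either. Leaving out young replicate 2 gave 4 calls with Postn among them. Old replicate 2, with 17 such cells, was not in this test, so it compared 165 old with 243 young cells. The increases of lowest p were Ctla2a, an inhibitor of cathepsin-like proteases in mice and 5.94 times higher in endothelial cells, with 220 and 157 CPM in old replicates 1 and 3, against 45.9, 46.9 and 53.6 CPM in young replicates 2 to 4 (1.91, SE 0.31, adjusted p = 0.131), then H2-Q6 (1.57), Tfip11 (1.79) and Sh2d1a, the adaptor SAP (1.61), with adjusted p from 0.351 to 0.356. Those 4 genes did not overlap between ages, as 9.79% of tested genes did not in this direction. Of the decreases of lowest p, Atf3, a stress-induced factor, averaged 48.8 ± 20.7 CPM in old (SD, n = 2) and 237 ± 177 CPM in young libraries (SD, n = 3; -2.37, adjusted p = 0.437), and Gpr171 had a log2 fold change of -1.69 (adjusted p = 0.604).

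Across lists, class I genes were higher in 14 of 15 in CD8-type members too (median 0.52, against -0.00 over all genes), and none passed. In 12 of the 15 all old libraries were above all young ones, as in 9.79% of tested genes. Checkpoint genes were higher in 9 and lower in 5 of 14 (median 0.11), quiescence genes in 15 and 9 of 24 (median 0.03), and ribosomal protein genes in 19 and 13 of 32 (median 0.04). Cd44 averaged 39.0 ± 15.6 CPM in old (SD, n = 2) and 62.7 ± 28.1 CPM in young CD8-type members (SD, n = 3), and 13.7% of old and 15.6% of young ones had a Cd44 UMI. Satb1 had 561 and 632 CPM in old replicates 1 and 3, against 746, 1006 and 774 CPM in young replicates 2 to 4 (log2 fold change -0.50, adjusted p = 0.881). The difference between the age changes of CD8- and CD4-type members was not tested.

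Whether an age change was particular to naive T cells was tested as the difference from the change in other T cells of the same libraries. Of 10770 genes, 1 passed (0.00929%), with 475 (4.41%) at an unadjusted p under 0.05. It was Cxcl10, the interferon-induced ligand of CXCR3 (chromosome 5, 92346638 to 92348889, minus strand). In members it had 68.6, 37.5 and 72.5 CPM in old replicates 1 to 3, against 13.1, 19.3 and 15.7 CPM in young replicates 2 to 4. In other T cells it had 63.2, 52.5 and 70.2 CPM in old replicates 1 to 3, against 58.2, 132 and 84.0 CPM in young replicates 2 to 4. The ages stood apart in members and overlapped in other T cells, and the log2 fold changes of 1.84 in members and -0.56 in other T cells differed by 2.46 in a fit of both sets together (SE 0.27, edgeR adjusted p = 0.0353). Cxcl10 was 6.51 times higher in fibroblasts of the series than in members. A Cxcl10 UMI was found in 8.19% of old and 8.90% of young members, against 9.41% of old and 29.1% of young B cells. The share in members is below that in B cells at both ages. With a Cd44 UMI it was 18.3% of old and 11.4% of young members, and without one 3.29% of old and 8.08% of young members. Cxcl10 was also called in CD4-type members (log2 fold change 2.43, edgeR adjusted p = 0.0466), and passed there under 8 of 13 alternatives. Whether the difference is expression in naive T cells or RNA of other cells was not tested. The count fell to 0 when old replicate 1, old replicate 3, young replicate 2 or young replicate 4 was left out, and was 13, Cxcl10 among them, when young replicate 3 was.

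For the genes called in members, the difference from other T cells did not pass. In young replicate 1, which is not in this fit, the 1 other T cell with Sostdc1 put its level at 93.2 CPM without TMM scaling, above the 10.3, 24.2 and 19.8 CPM of other T cells in old replicates 1 to 3 on that scale. In the fit, Sostdc1 averaged 18.1 ± 6.69 CPM in old and 0 in the same 3 young libraries' other T cells (SD, n = 3), and the change in members minus that in other T cells was -1.75 (SE 1.20, edgeR adjusted p = 1.00). Tnfsf8 changed by 1.99 in members, and its log2 fold change in other T cells was 1.69 (adjusted p = 0.334); the difference was 0.27 (SE 0.26, adjusted p = 1.00). Log2 fold changes in members and in other T cells were 3.26 and 0.34 for Ifng and 3.42 and 0.73 for Spock2. They were 2.26 and 0.45 for Tiam1, 2.22 and 0.90 for Stx11, 2.30 and 1.56 for Sdcbp2, and 7.51 and 8.56 for Jchain. In the fit of both sets together the differences were 1.90 for Ifng, 2.55 for Spock2, 1.71 for Tiam1, 1.26 for Stx11 and 0.42 for Sdcbp2. Gzmk, the single gene called in other T cells among 11118 (0.00899%), averaged 132 ± 40.1 CPM in old and 3.70 ± 2.91 CPM in young other T cells (SD, n = 3 each). Dapl1, whose fold change did not pass in either set, had log2 fold changes of -2.02 in members and -2.32 in other T cells.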

How the data were processed

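The deposited files hold UMI counts per gene and cell barcode, which the authors made with Cell Ranger 4.0.0 on mm10, per the submitters' processing notes; the annotation and the rule that kept barcodes are not given in the sources used here. Of 27998 genes, 27645 IDs matched GENCODE M21, which gave positions. Cells were kept from 500 UMIs and 300 detected genes upward if mitochondrial UMIs did not exceed 15%. Library totals ran from 52336665 to 99516882 UMIs. Between 2 and 19 barcodes of kept cells were shared by pairs of libraries, and 0 by members. Doublets were kept in the main results; 26 members were among those marked by Scrublet at 0.8% per 1000 barcodes.

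Counts of members were summed per library (at least 20 members) and tested with edgeR 4.0.16 in R 4.3.3 (filterByExpr, TMM, quasi-likelihood test, Benjamini-Hochberg adjustment over all genes tested); DESeq2 1.42.0 was an alternative. Shares were compared by exact permutation of mean log2 odds in Python 3.11.15 with scipy 1.17.1 and adjusted over 3 shares. Exact 95% binomial and ratio intervals and the limit for a count of 0 (3 counts) cover counting error only. On simulated counts of all members, 89 of 100 genes changed by a log2 fold of 2 were recovered, and 22 of 100 at a log2 fold of 1 (8451 genes). In the CD8 type it was 55 and 9 (6322 genes), and in the CD4 type 76 and 16 (5662 genes). For the difference from other T cells it was 74 and 11 (10471 genes). In the same order 4, 2, 4 and 9 unchanged genes were called. The simulations gave all genes a common spread between libraries, while real genes differ in theirs.

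The members, gene lists and tests were chosen with earlier results of these data known. Genes were named by rule: in the comparison of all members, up to 12 increases and 12 decreases past the threshold with libraries apart, a mean of at least 50 CPM at 1 age and no level over 10 times higher in another cell type, leaving out gate genes, mitochondrial genes and gene models named Gm or Rik; from each list up to 4 members that passed or the 2 of lowest p; a set of fixed genes; and in the other comparisons the 4 of lowest p in each direction under the same exclusions. Leaving out members with a Cd44 UMI, adding young replicate 1 and a minimum of 10 CD8-type members were alternatives chosen after seeing the data.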

Additional observations from a re-analysis of the deposited data

Results flagged for a closer look

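Cxcl10 was the single gene whose age change in naive T cells differed from that in other T cells by the interaction term of the joint fit, with a difference of 2.46 on the log2 scale (SE 0.27, edgeR adjusted p = 0.0353). In members all 3 old libraries were above all 3 young ones, and in other T cells the ages overlapped. A Cxcl10 UMI was found in 8.19% of old and 8.90% of young members, below the 9.41% of old and 29.1% of young B cells. Whether the share in members is background was not tested. The call was lost when old replicate 1, old replicate 3, young replicate 2 or young replicate 4 was left out. Of 10 groups of library shares tested for a library far from the rest of its group, none was marked; chance alone marks about 1 in 20.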

How the results depend on the processing

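The share of kept cells did not keep its direction: leaving out each library in turn gave log2 odds differences from -0.0121 (without young replicate 1) to 1.598, against 0.89. The differences in the share of T cells (-1.996 to -1.013) and in the CD8 share (-2.225 to -0.887) kept theirs, and no share passed under any alternative run. With a library left out, and for the CD8 share throughout, too few splits remain for any result to pass. Counts of genes moved most. In all members the 9 calls became 0 to 15 without single libraries, 1 with the gate of at least 2 UMIs, 0 with the stricter cell filter (522 at an unadjusted p under 0.05), 19 without doublets (with all 9 among them), 38 by DESeq2, 324 without a filter on low counts and 0 without Cd44 members (523 unadjusted); thinning gave 11, 5 higher and 6 lower, of which 1 was among the 9. In the CD8 type the 1 call became 1 to 4 without single young libraries, 0 after thinning (228 unadjusted), 3 by DESeq2 and 132 without the filter. In the CD4 type the 33 calls became 0 to 255 without single libraries, 2 with the stricter gate, 0 with the stricter cell filter (343 unadjusted), 4 after thinning, 48 by DESeq2 (27 of the 33), 256 without the filter and 18 without Cd44 members. For the difference from other T cells the 1 call became 0 to 13 without single libraries, 2 with the stricter gate, 0 with the stricter cell filter (438 unadjusted), 2 without doublets, 2 after thinning, 2 by DESeq2, 50 without the filter and 0 without Cd44 members (519 unadjusted). The cause of these moves was not tested. Without the filter the median of all genes shifted to -0.15 in the CD8 type and 0.11 in the CD4 type.

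With the replicate number as a block over numbers 2 and 3 the counts were 130 in all members, 59 in the CD4 type and 82 for the difference. In the fits of all members and of the CD4 type, age then rests on those numbers alone. Old replicate 1 and young replicate 4 are taken up by their own blocks, so these counts are no measure of a gain from pairing. Deviations from the group means of same-numbered libraries correlated at 0.13 and -0.00, and those of other pairs at -0.13 to 0.16. Resting on the same-numbered pairs of numbers 2 and 3 alone, this cannot decide whether the numbers pair the libraries. Shares under the block differed by 1.26, -1.097 and -1.43. With so few same-numbered pairs this test could not have passed for any share, so it decides nothing. For the CD8 type, the block and the stricter cell filter could not be fitted and were not run. The size of change limits recovery: in simulated counts of all members 22 of 100 genes were recovered at a log2 fold of 1, and recovery by depth was not simulated.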

Other observations

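Several genes outside the comparisons above stood out in CD4-type cells without passing, and were named after their values were seen. S100a6, a calcium-binding gene of memory T cells, had a log2 fold change of 1.84, old over young (edgeR adjusted p = 0.0549), Pdcd1 of 2.05 (0.129) and Cxcr3 of 1.72 (0.0996). CD8 T cells of memory type, which are outside the gate, made up 3.38% ± 0.317 of kept cells in old libraries (SD, n = 3), against 0.226% ± 0.157 in young libraries (SD, n = 4). Members marked by single genes also differed in type: of the 58 old members with an Eomes UMI, 23 were of CD8 type, and of the 25 with a Sostdc1 UMI, 0 were.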
